A study of Mus musculus with 8 samples.

Results

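The SLC16 family of monocarboxylate transporters and the membrane chaperones that carry them to the cell surface were followed in brain endothelial cells. The cells came from mouse pups with an endothelial knockout of GLUT1 and from WT pups. The set comprised 9 of the 25700 genes in the count tables and was taken by symbol: the 7 carrier genes Slc16a1, Slc16a3, Slc16a4, Slc16a6, Slc16a7, Slc16a9 and Slc16a10, and the chaperone genes Bsg and Emb. Endothelial cells were sorted by flow cytometry from C57BL/6 pups at postnatal day 6 and lysed uncultured, with 1 poly(A) RNA-seq library per pup. The KO group held 4 GLUT1EC-/- pups and the WT group held 4 WT pups. In the KO pups the gene for GLUT1, the main glucose carrier of the blood-brain barrier, is targeted in endothelial cells. The sources used here name no agent given to either group, and they do not name the Cre driver or its efficiency. The comparison asked how transcripts for the carriage of lactate, ketone bodies and thyroid hormone stand when this glucose carrier gene is targeted. The counts measure neither glucose uptake nor GLUT1 protein.

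SLC16 proteins such as MCT1 (Slc16a1), MCT2 (Slc16a7) and MCT4 (Slc16a3) move lactate, pyruvate and ketone bodies across the membrane together with a proton, in the direction set by the gradients. MCT1 and MCT4 reach the surface bound to basigin (Bsg), and MCT2 can use embigin (Emb). In suckling rodents MCT1 is abundant in brain endothelium, where it passes ketone bodies and lactate from the blood to the brain. Some SLC16 relatives carry other cargo, such as Slc16a10 (TAT1), which carries aromatic amino acids and thyroid hormone.

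The stretch upstream of the transcription start is shown for 3 carriers, chosen because they are the highest (Slc16a1), the next highest (Slc16a4) and the lowest (Slc16a3) of the 7 by level. RefSeq's promoter table (GRCm38.p6) held 6 of the 9 genes, Bsg, Slc16a6 and Slc16a7 being the others. Each line gives the 250 bases before the start on the plus strand, 5′ to 3′, and the capitals mark matches on either strand to 4 short motifs. They are the E-box, spelled CACGTG, a form of the core of the hypoxia response element, spelled ACGTG, the GC box, spelled GGGCGG, and the motif known by its letters as the CCAAT box. An E-box also holds the hypoxia core on both strands, so such a match counts for both motifs.
Slc16a1, chr3:104638414-104638663: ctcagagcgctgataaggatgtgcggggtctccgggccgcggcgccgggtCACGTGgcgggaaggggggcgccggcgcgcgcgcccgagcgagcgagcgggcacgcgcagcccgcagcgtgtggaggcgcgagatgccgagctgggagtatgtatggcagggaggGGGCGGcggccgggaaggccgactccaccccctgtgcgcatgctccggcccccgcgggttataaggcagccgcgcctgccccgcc
Slc16a4, chr3:107290980-107291229: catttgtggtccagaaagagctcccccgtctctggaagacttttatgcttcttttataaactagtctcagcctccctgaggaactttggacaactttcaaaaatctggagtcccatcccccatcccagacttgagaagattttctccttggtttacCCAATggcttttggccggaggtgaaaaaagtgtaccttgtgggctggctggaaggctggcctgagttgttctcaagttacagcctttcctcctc
Slc16a3, chr11:120948817-120949066: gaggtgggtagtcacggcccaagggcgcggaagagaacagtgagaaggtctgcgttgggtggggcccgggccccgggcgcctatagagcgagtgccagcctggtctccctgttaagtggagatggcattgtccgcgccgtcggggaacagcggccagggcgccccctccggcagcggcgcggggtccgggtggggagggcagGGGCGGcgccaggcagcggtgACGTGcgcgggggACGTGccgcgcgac
The Slc16a1 window holds 1 E-box, whose first base lies 200 bases before the start, and 1 GC box at 85 bases. It is 76.4% G or C, a share at percentile 97.0 of the 32851 promoters in the table (median 52.4%), and has 37 CpG sites. The Slc16a3 window is 73.6% G or C, with the hypoxia core at 27 and 14 bases and a GC box at 48 bases before the start. It lies downstream of the first GENCODE start of the gene and 14 of its bases are annotated as exon. The Slc16a4 window differs from both, at 48.0% G or C with 2 CpG sites and 1 CCAAT box at 94 bases. The E-box is in 6.02% of all windows of this length, the hypoxia core in 16.6%, the GC box in 32.7% and the CCAAT box in 33.8%, so the E-box is the least common of them. A CpG-rich window was thus found for the highest and for the lowest carrier. The windows of Slc16a9 and Slc16a10, not shown, are 70.4% and 64.4% G or C. Whether level follows base composition was not tested.

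Total counts ran from 20.9 to 114 M (M for mega), and genes detected from 13624 in KO pup 1 to 15756 to 17082 in the other libraries. The titles put WT pup 5 in a cage with the 4 KO pups and WT pups 1, 2 and 3 in a second one, although the protocols call the controls littermates. The names of the processed files place WT pup 3 instead of WT pup 5 with the KO pups, so genotype and cage can hardly be told apart. The labelled cell type was matched by its markers: all 10 endothelial markers were present, summing to 14096 to 15849 CPM in KO and 15191 to 15924 in WT (CPM, TMM-scaled counts per 1000000 of the library). Mural markers, of pericytes and smooth muscle, were also present in all libraries, at 1760 to 2652 CPM in KO and 479 (WT pup 2) to 2671 in WT. The mitochondrial share of counts was 2.04 to 2.48% in KO and 1.66 to 1.89% in WT. Slc2a1, which encodes GLUT1, measured 1386, 1511, 1528 and 1602 CPM in KO pups 1 to 4 and 2238, 3420, 2792 and 3726 CPM in WT pups 1, 2, 3 and 5. It fell in KO by edgeR's quasi-likelihood test (log2 fold change -1.01, SE 0.14, adjusted p 0.00619), a residual that does not measure deletion, since exons outside a deleted part can be counted. With a term for the cages of the file names the edgeR adjusted p was 0.331 (log2 fold change -0.89). Since the KO pups share a cage, a cage term leaves the genotype difference to the WT pup placed with them. That pup is WT pup 3 by the file names and WT pup 5 by the titles.

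All 9 genes passed the filter on low counts, and 0 of 9 were called higher and 0 of 9 lower in KO by edgeR (adjusted p under 0.05 over all genes tested). Over all 14154 tested genes the background was 0.389% called in either direction, 0.276% higher and 0.113% lower. DESeq2 also called 0 of the 9, against 2.36% of the genes it tested, and limma-voom called 0. Of the 9, Slc16a7 and Slc16a9 had an unadjusted edgeR p under 0.05, as did 11.1% of all genes. The median log2 fold change of the 9 was 0.03 (all genes 0.00) and the median size of the change, without sign, was 0.19 (all genes 0.15). In these bulk libraries fewer cells of a type and less RNA per cell cannot be told apart.

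The carriers spanned more than 3 orders of magnitude. Levels of different genes are compared here as CPM per kilobase of annotated exons. In WT the chaperone Bsg stood first at 3053 ± 523 (SD, n = 4) CPM per kilobase, and Slc16a1 followed at 773 ± 97.2. Slc16a4 came next at 33.0 ± 5.49, which put Slc16a1 23.4 times above the second carrier. Slc16a9 stood at 23.1 ± 1.46, Slc16a6 at 7.18 ± 0.996 and Emb at 1.2 ± 0.58 CPM per kilobase. At the foot of the order were Slc16a7 at 0.455 ± 0.0732, Slc16a10 at 0.44 ± 0.105 and Slc16a3 at 0.266 ± 0.0571 CPM per kilobase. The WT ranges of Slc16a7 and Slc16a10 overlapped, as did those of Slc16a10 and Slc16a3, while every neighbouring pair above them was separated. With the longest transcript as the gene length Slc16a7 and Slc16a10 changed places (0.49 and 0.6), Slc16a4 stood at 50.6, which narrows the gap to Slc16a1 at 773, and Emb stood at 2.84. The other ranks were as given.

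**Figure D1:**
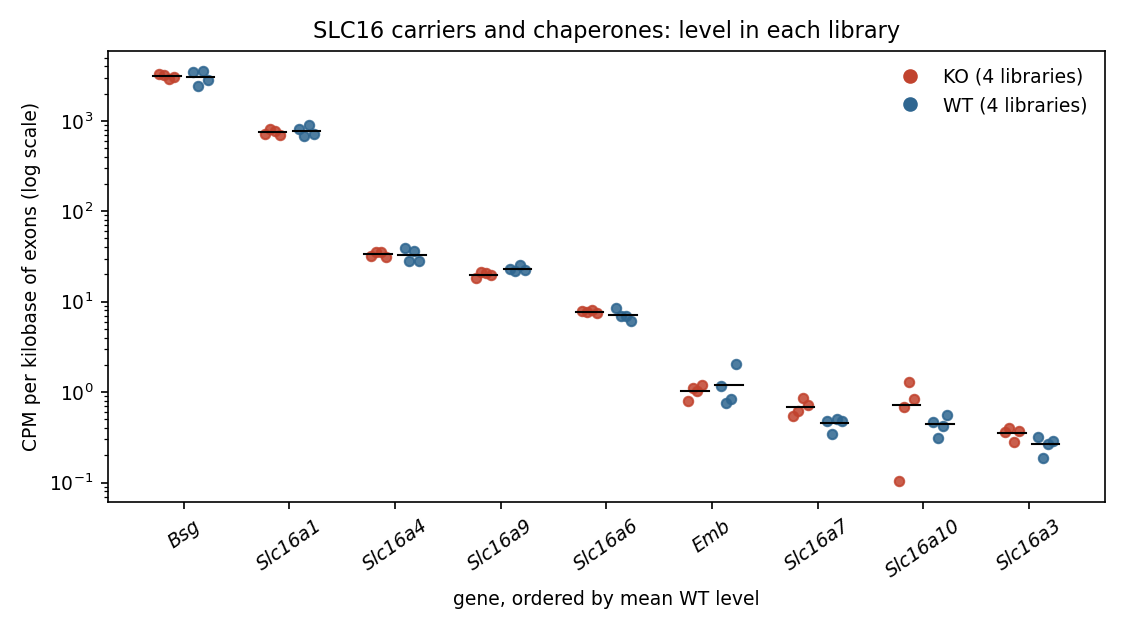
Level of each of the 9 genes in CPM per kilobase of exons (log axis), 1 point per library, KO in red and WT in blue, with the group mean as a bar, ordered by WT mean. Bsg and Slc16a1 sit at or above 682 CPM per kilobase in every library and Slc16a3 at or below 0.405.

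Slc16a1 therefore made up most of the carrier message in every pup. Its share of the summed per-kilobase level of the 7 carriers was 92.2 ± 0.238% in KO and 92.3 ± 0.392% in WT (SD, n = 4 each), with libraries between 91.9 and 92.8%. Set against Slc16a3, the lactate exporter of glycolytic cells, the per-kilobase level of Slc16a1 was 1886 to 2742 times higher in KO libraries and 2448 to 3677 times higher in WT libraries.

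Slc16a1 (ENSMUSG00000032902; GRCm38 chromosome 3, 104638668 to 104658462, plus strand), the carrier of lactate, pyruvate and ketone bodies, had the largest counts of the 7 SLC16 carriers, 66605 to 336630 per library. It stood at 3195, 3544, 3450 and 3072 CPM in KO pups 1 to 4 and at 3588, 3019, 3952 and 3131 CPM in WT pups 1, 2, 3 and 5. Both the lowest (pup 2) and the highest (pup 3) level belonged to WT, and the KO libraries lay between them. The means were 3315 ± 219 CPM in KO and 3422 ± 430 in WT. The log2 fold change was -0.05 (SE 0.09, 95% interval -0.25 to 0.16), with an edgeR adjusted p of 0.914. On the linear scale the interval ran from 0.841-fold to 1.12-fold. Against WT pup 5 alone, its cage mate by title, the 4 KO pups gave 0.08, and without WT pup 3 the value was 0.03. With a term for the cages of the file names it was -0.25 (edgeR adjusted p 0.955).

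The Slc16a1 message set against that of Slc2a1 differed between the genotypes through Slc2a1. The ratio of their per-kilobase levels was 1.83, 1.86, 1.79 and 1.52 in KO pups 1 to 4 and 1.27, 0.699, 1.12 and 0.666 in WT pups 1, 2, 3 and 5. Every KO pup stood above every WT pup. The mean ratio was 1.75 ± 0.156 in KO and 0.939 ± 0.302 in WT (SD, n = 4 each). In KO the monocarboxylate carrier was thus the more abundant message in all 4 libraries, and in WT in 2 of 4. Because Slc2a1 was the targeted gene, this ratio is a description and was not tested.

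Bsg (ENSMUSG00000023175; chromosome 10, 79704491 to 79711969, plus strand) encodes basigin, the immunoglobulin-family partner of MCT1 and MCT4. It measured 5922, 5816, 5301 and 5544 CPM in KO pups 1 to 4 and 6257, 4438, 6399 and 5058 CPM in WT pups 1, 2, 3 and 5. As for Slc16a1, WT pup 2 was lowest, WT pup 3 highest, and the KO libraries lay inside the WT range. Between genotypes the log2 difference was 0.03 (SE 0.11, 95% interval -0.21 to 0.27; edgeR adjusted p 0.96), and without WT pup 2 it was -0.07. Per kilobase, Bsg stood 4.17 ± 0.356 times above Slc16a1 in KO and 3.94 ± 0.274 times in WT, with ranges of 3.75 to 4.52 and 3.59 to 4.26 that overlapped.

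Emb (ENSMUSG00000021728; chromosome 13, 117208536 to 117274415, plus strand) encodes embigin, a relative of basigin. It was low, at 5.56, 7.75, 7.19 and 8.31 CPM in KO pups 1 to 4 and 8.18, 5.26, 5.75 and 14.0 CPM in WT pups 1, 2, 3 and 5. WT pup 5 stood above all others, WT pup 2 below all others, and WT pups 1 and 3 lay among the KO libraries. With WT pup 5 the log2 fold change was -0.19 (SE 0.30; edgeR adjusted p 0.879), and without it 0.17. With the cage of the titles as a term, or against WT pup 5 alone, it was -0.95, and with the cage of the file names 0.33. That library also had the highest summed choroid plexus markers (5 of 5 present, mostly Ttr; 1868 CPM against 364 to 877 in the other WT and 16.4 to 290 in KO pups) and the highest summed erythroid markers (1632 CPM, 9 of 10 with a row). The part of either in the Emb value was not tested.

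**Figure D2:**
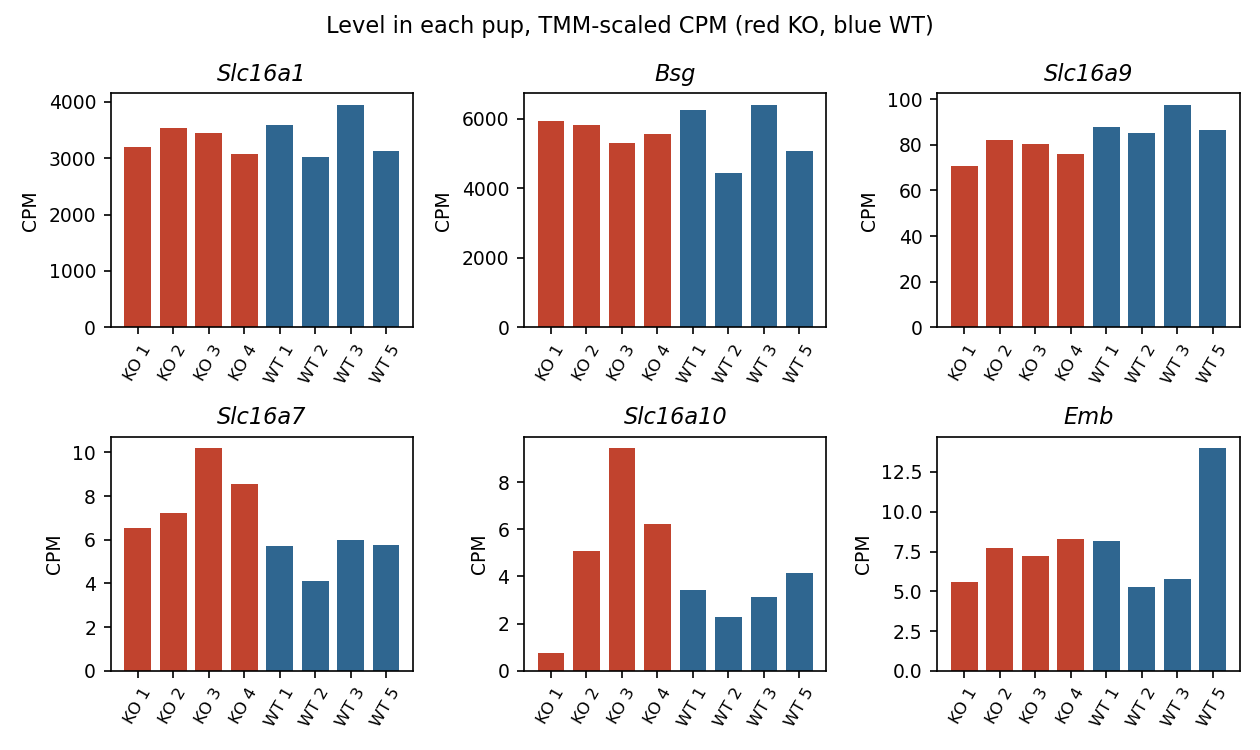
CPM of 6 of the genes in each pup (bars from 0, 1 bar per library, KO red and WT blue). Slc16a1 and Bsg have KO bars inside the WT range, Slc16a9 has every KO bar below every WT bar, Slc16a7 has every KO bar above, Slc16a10 ranges in KO from 0.768 to 9.44, and Emb peaks at 14.0 in WT pup 5.

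Slc16a7 and Slc16a9 were the 2 of the 9 genes whose groups did not overlap, 1 higher and 1 lower in KO. Over all tested genes 7.19% did not overlap, 3.77% with KO higher and 3.43% with KO lower. Slc16a7 (ENSMUSG00000020102; chromosome 10, 125219270 to 125389465, minus strand) encodes MCT2, a carrier with high affinity for its substrates that is known from neurons. It measured 6.52, 7.25, 10.2 and 8.57 CPM in KO pups 1 to 4 and 5.70, 4.10, 5.99 and 5.75 CPM in WT pups 1, 2, 3 and 5, from 136 to 457 counts. KO pups 3 and 4 were highest, KO pup 1 was nearest to the WT libraries, and WT pup 2 was lowest. The log2 fold change was 0.60 (SE 0.21, 95% interval 0.13 to 1.07), or 1.51-fold, with an unadjusted p of 0.0164 and an adjusted p of 0.31 in edgeR. DESeq2 and limma-voom gave adjusted p values of 0.184 and 0.174. A two-sided exact permutation test of the CPM gave 0.0286, its minimum with 4 libraries per group. With the cage of the titles as a term the value was 0.50 (edgeR adjusted p 0.84), and without KO pup 3 it was 0.46.

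Slc16a9 (ENSMUSG00000037762; chromosome 10, 70245100 to 70285968, plus strand) encodes MCT9, which is linked to carnitine transport. Its levels were 70.5, 81.9, 80.2 and 76.1 CPM in KO pups 1 to 4 and 87.7, 85.3, 97.6 and 86.3 CPM in WT pups 1, 2, 3 and 5. The nearest libraries of the groups, KO pup 2 and WT pup 2, lay close together. The means were 77.2 ± 5.07 and 89.2 ± 5.64 CPM, which corresponds to -0.21 on the log2 scale (SE 0.08, 95% interval -0.38 to -0.03) with an edgeR adjusted p of 0.35 and an exact permutation p of 0.0286. Here DESeq2 gave an adjusted p of 0.276, and with the cage of the titles as a term the value was -0.16 (edgeR adjusted p 0.864). The antisense genes Gm7097 and Gm9877 cover 12.7% and 10.8% of its exon bases, and the strand setting of the counting is not known from the sources used here.

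**Figure D3:**
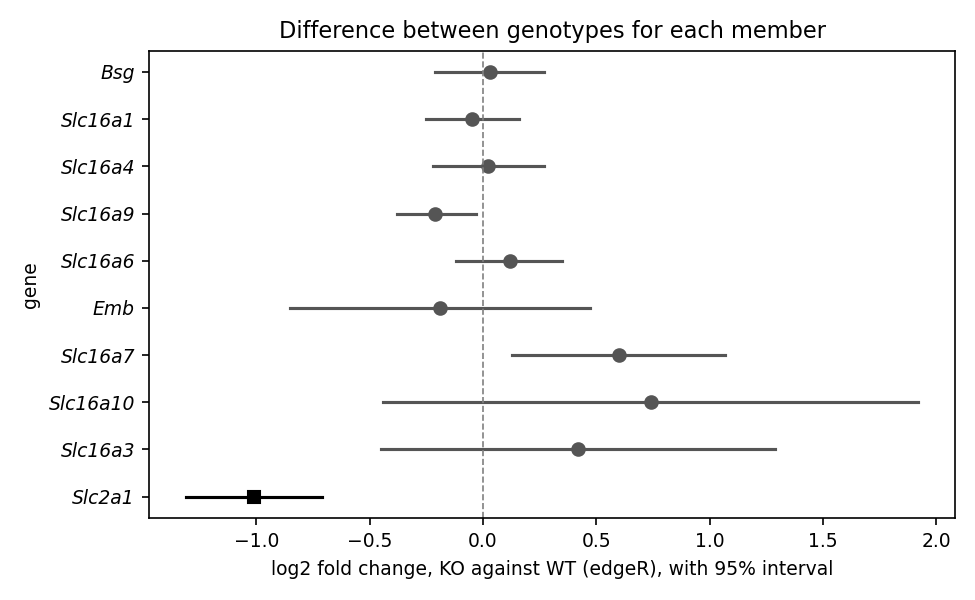
Log2 fold change of KO against WT from edgeR for the 9 genes, ordered by WT level, and for Slc2a1 (square), with 95% intervals as bars. Those of Slc16a7 (0.13 to 1.07) and Slc16a9 (-0.38 to -0.03) leave out 0 before adjustment, and Slc2a1 lies at -1.01.

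Slc16a10 (ENSMUSG00000019838; chromosome 10, 40033532 to 40142258, minus strand), the carrier of aromatic amino acids and thyroid hormone, was the most uneven of the 9 among KO pups. It measured 0.768, 5.06, 9.44 and 6.23 CPM in KO pups 1 to 4 and 3.41, 2.27, 3.14 and 4.14 CPM in WT pups 1, 2, 3 and 5. KO pup 1, with 16 counts, was the lowest of all libraries and the other 3 KO pups were the highest. The coefficient of variation was 66.7% in KO and 23.8% in WT, where Emb varied more (48.3%). Its log2 fold change was 0.74 (SE 0.54, 95% interval -0.44 to 1.92; edgeR adjusted p 0.674). Without KO pup 1, the shallowest library, it was 1.10 (edgeR adjusted p 0.138), and without KO pup 3, the highest, 0.32.

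The 3 libraries highest for the low carriers Slc16a7 and Slc16a10 were also the highest for markers of leukocytes other than microglia, of which 7 of 10 were above 1 CPM on average. The sum of these markers, led by the macrophage receptor gene Mrc1, was 504, 736, 1327 and 938 CPM in KO pups 1 to 4 and 583, 432, 515 and 610 CPM in WT pups 1, 2, 3 and 5. KO pup 3 was highest, then KO pups 4 and 2, in the same order as for both carriers. KO pup 1 departed from this: with a marker sum above that of WT pup 2 alone, it stood above every WT library for Slc16a7 and below every library for Slc16a10. None of the 10 markers was at 0 in all libraries. Microglial markers (10 of 10 present) summed to 675 to 1797 CPM in KO and 696 to 1194 in WT and were also highest in KO pup 3. In a fit with the leukocyte level as a term, chosen after seeing the data, the log2 fold change was 0.25 for Slc16a7 (edgeR adjusted p 0.613) and -0.97 for Slc16a10 (edgeR adjusted p 0.349). The same term gave -0.27 for Slc16a9 and -0.08 for Slc16a1. Because KO pups 2, 3 and 4 had marker sums above every WT library, this term and genotype can hardly be told apart. The cell source of Slc16a7 and Slc16a10 was not tested.

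**Figure D4:**
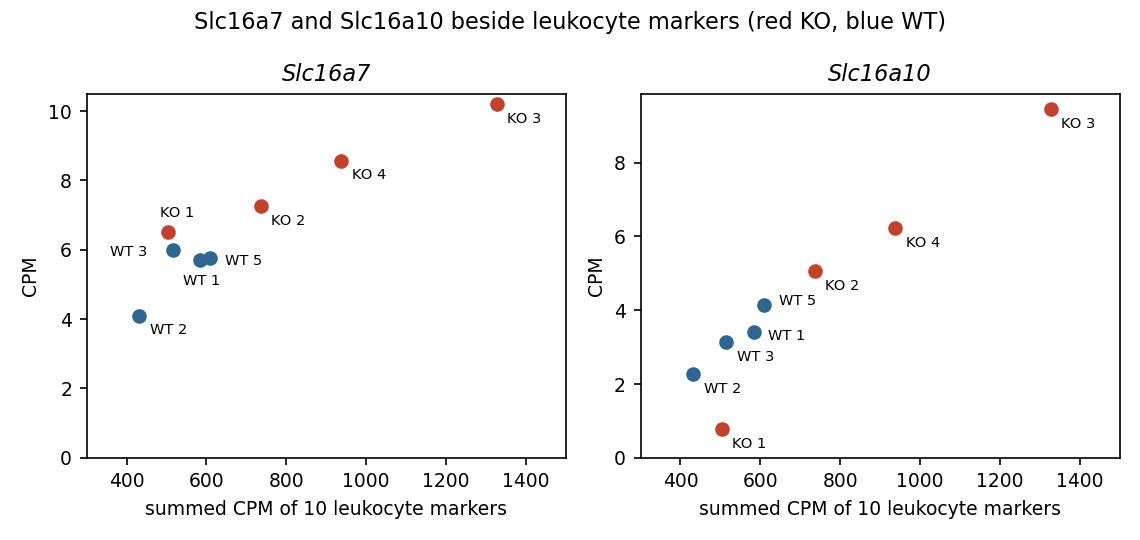
CPM of Slc16a7 (left) and Slc16a10 (right) against the summed CPM of 10 leukocyte markers, 1 labelled point per library, KO in red and WT in blue. The 3 libraries with the highest marker sums, KO pups 3, 4 and 2, are also the highest for both genes, and KO pup 1, at a marker sum of 504 CPM, is above all WT libraries for Slc16a7 and lowest for Slc16a10.

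Slc16a3 (ENSMUSG00000025161; chromosome 11, 120948480 to 120960868, plus strand) encodes MCT4, the exporter of lactate from glycolytic cells and a textbook target of hypoxia signalling. It was low, with 37 to 110 counts per library. The levels were 1.92, 2.16, 1.51 and 1.96 CPM in KO pups 1 to 4 and 1.69, 0.987, 1.44 and 1.54 CPM in WT pups 1, 2, 3 and 5. KO pup 3 lay inside the WT range, and the other 3 KO libraries lay above it. A log2 fold change of 0.42 was measured with a wide interval of -0.45 to 1.29 (edgeR adjusted p 0.759).

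Slc16a4 (ENSMUSG00000027896; chromosome 3, 107291230 to 107312115, plus strand), a carrier whose cargo is little known, was present at 123, 136, 139 and 122 CPM in KO pups 1 to 4 and 152, 110, 140 and 110 CPM in WT pups 1, 2, 3 and 5. The KO libraries lay inside the WT range. Its log2 fold change was 0.02 (SE 0.11, 95% interval -0.22 to 0.27; edgeR adjusted p 0.967).

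Slc16a6 (ENSMUSG00000041920; chromosome 11, 109450855 to 109473598, minus strand) encodes MCT7, known for the export of ketone bodies from liver. It measured 38.2, 37.5, 39.6 and 36.7 CPM in KO pups 1 to 4 and 41.8, 34.3, 34.1 and 30.1 CPM in WT pups 1, 2, 3 and 5. WT pup 1 was highest, and the KO libraries stood above the other 3 WT libraries. The log2 fold change was 0.12 (SE 0.11; edgeR adjusted p 0.755). This value is uncertain, since Amz2 on the opposite strand shares 1052 bases, or 21.5%, of its exons.

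The 2 most abundant of the 9 genes varied more between WT pups than between KO pups. So did Slc16a3, Slc16a4, Slc16a6 and Emb, while Slc16a7 and Slc16a10 varied more between KO pups. For Slc16a9 the coefficients of variation were close, at 6.57% in KO and 6.32% in WT. The KO pups shared a cage. The WT pups shared a second one, except WT pup 5 by the titles or WT pup 3 by the file names. The difference in spread was not tested. The coefficient of variation of Slc16a1 was 6.61% in KO and 12.6% in WT, and that of Bsg 4.95% and 17.1%. WT pup 2, the deepest library, had the lowest level of 5 of the 9 genes (Slc16a1, Slc16a3, Slc16a7, Bsg and Emb) and the highest of 0, and WT pup 3 had the highest of 3. WT pup 2 also had the lowest summed mural markers (479 CPM) and the lowest leukocyte markers (432 CPM), whose part in these levels was not tested.

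Of the 7 remaining SLC16 genes, 4 were tested and 0 were called, against 0.389% of all tested genes. Their log2 fold changes lay between -0.38 and 0.37, with a median of -0.04. Slc16a12, a creatine carrier, stood at 0.37 (edgeR adjusted p 0.694), and Slc16a13 at -0.23 (edgeR adjusted p 0.622). Slc16a5, Slc16a8 and Slc16a14 were too low to test. Slc16a14 measured 0, 0, 0 and 0.143 CPM in KO and 0.477, 0.215, 0.271 and 0.355 CPM in WT pups 1, 2, 3 and 5, where a count of 0 in the 3 KO libraries allows up to 0.123 to 0.144 CPM. The retinal and choroid plexus carrier Slc16a8 was highest, at 1.73 CPM, in WT pup 5, the library with the highest choroid plexus marker sum, and 0 to 0.429 CPM in the others.

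Genes that make and use the cargo of these carriers gave 0 calls, against 0.389% of all tested genes. In lists this short, 0 calls say little. In the list for lactate and pyruvate handling 14 of 16 genes were tested, 0 were called in either direction, and the log2 fold changes ran from -0.22 to 0.18 (median 0.03). Ldha, the subunit of lactate dehydrogenase that favours lactate, stood at -0.02 (SE 0.06, edgeR adjusted p 0.948) at a level of 288 ± 8.54 CPM in KO and 292 ± 13.6 in WT. Pdha1, of pyruvate dehydrogenase, stood at 0.03 and Pcx, pyruvate carboxylase, at 0.05. Of the 9 genes of ketone body making and use all were tested and 0 were called. Their log2 fold changes ran from -0.29 to 1.07 (median 0.16). An unadjusted edgeR p under 0.05 was found for 1 of the 9, against 11.1% of all tested genes. Acat1, a thiolase of ketone body metabolism, measured 76.9 ± 8.14 CPM in KO and 71.2 ± 7.54 in WT (log2 fold change 0.11, edgeR adjusted p 0.758).

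Of 16 genes of thyroid hormone transport and action 13 were tested and 0 were called, against 0.389% of all tested genes. Their log2 fold changes ran from -2.84 to 1.0 (median 0.15). Of the 13, 5 had an unadjusted edgeR p under 0.05, against 11.1% of all tested genes. In 3 genes the groups did not overlap, 1 higher and 2 lower in KO (7.19% of all tested genes did not overlap). Slco1a4, an organic anion carrier of the blood-brain barrier, measured 905, 1010, 900 and 748 CPM in KO and 687, 725, 743 and 738 CPM in WT pups 1, 2, 3 and 5. Every KO library was above every WT library, KO pup 4 only narrowly (log2 fold change 0.30, SE 0.09, edgeR adjusted p 0.226). Thra, thyroid hormone receptor alpha, measured 79.5 to 83.0 CPM in KO and 88.7 to 116 in WT (-0.27, SE 0.09, edgeR adjusted p 0.265). Ttr, the carrier protein transthyretin made by the choroid plexus, ranged from 10.5 to 276 CPM in KO and 352 to 1823 in WT (-2.84, SE 0.79, edgeR adjusted p 0.193). Slco1c1, the endothelial thyroxine carrier, stood at 2857 ± 303 CPM in KO and 2934 ± 195 in WT, and the amino acid carrier genes Slc7a5 and Slc3a2 at -0.18 and -0.09 on the log2 scale.

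Relatives and partners of the chaperones gave 9 of 9 tested genes and 0 called, against 0.389% of all tested genes. There were 2 without overlap, both higher in KO, as were 3.77% of all tested genes. Nptn, which encodes neuroplastin, a close relative of basigin, measured 135, 131, 120 and 124 CPM in KO pups 1 to 4 and 102, 90.5, 105 and 103 CPM in WT pups 1, 2, 3 and 5. All KO libraries stood above all WT libraries. The log2 fold change was 0.35 (SE 0.08), with an adjusted p of 0.0901 in edgeR, 0.077 in limma-voom and 0.00764 in DESeq2. The call thus depended on the tool, and DESeq2 called 2.36% of the genes it tested. Cd44, a hyaluronan receptor that binds basigin, measured 6.91 to 8.57 CPM in KO and 4.06 to 6.19 in WT (0.57, SE 0.20, edgeR adjusted p 0.285). Ppia, the basigin ligand cyclophilin A, and Itgb1 stood at -0.02 and 0.03.

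Among 10 transcription factors reported to act on SLC16 genes, 0 were called by edgeR, against 0.389% of all tested genes. Their median log2 fold change was 0.07. Epas1, the hypoxia factor abundant in endothelium, stood at 0.03 (edgeR adjusted p 0.939) and Ppard at -0.08. Nfe2l2, the regulator of antioxidant genes, measured 159 to 189 CPM in KO and 115 to 151 in WT. The groups did not overlap, with KO higher, as in 3.77% of all tested genes. The log2 fold change of Nfe2l2 was 0.34 (SE 0.09), with an adjusted p of 0.18 in edgeR, 0.151 in limma-voom and 0.0459 in DESeq2. DESeq2 called 2.36% of the genes it tested.

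**Figure D5:**
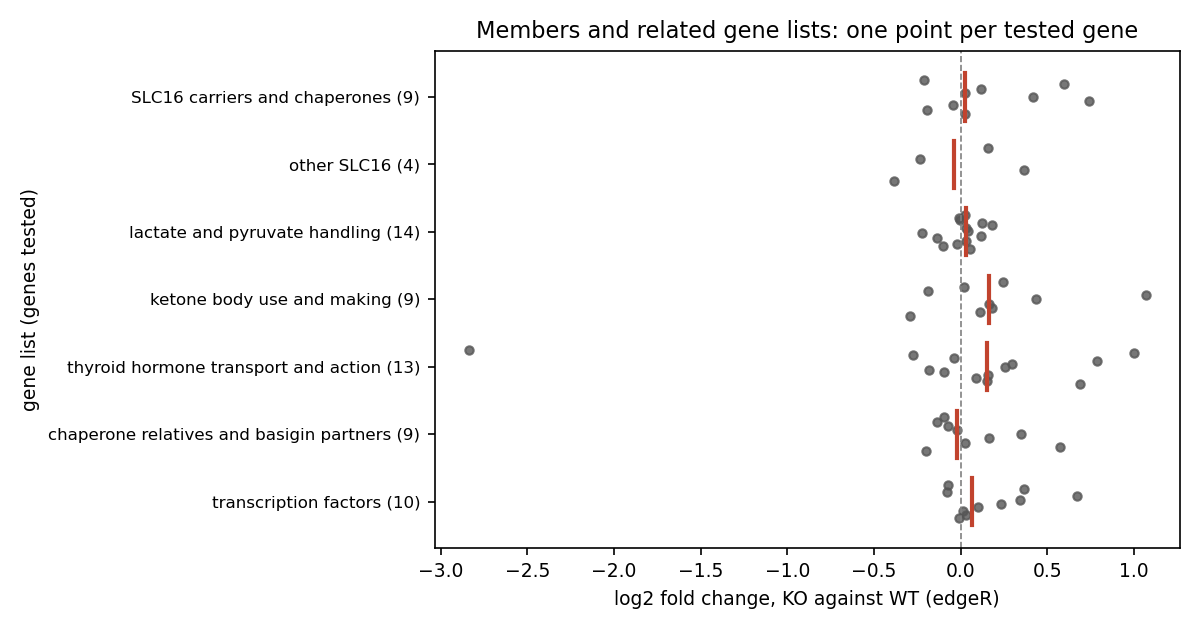
Log2 fold change of KO against WT (edgeR) for each tested gene of the 9-gene set and of the 6 related lists, 1 grey point per gene, with the list median as a red bar. Medians lie between -0.04 and 0.16, and the point at -2.84 is Ttr.

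Genes whose log2 CPM followed Slc16a1 most closely over the 8 libraries were Tmem173 (Pearson r 0.927), Sept8 (0.918), Notum (0.916), Csnk2b (0.914) and Pglyrp1 (0.909), out of 9698 genes compared. The libraries differ in genotype, cage and depth, so these values describe likeness only. Each of the 5 had, like Slc16a1, no genotype call, with log2 fold changes between -0.12 and -0.02. That likeness is largely set by the choice, since the 5 were picked for following Slc16a1 over the same libraries. How many values this high arise by chance among 9698 genes was not tested. Notum encodes a secreted Wnt deacylase that is known from brain endothelium, and its level was 119 ± 13.3 CPM in KO and 130 ± 23.2 in WT.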

How the data were processed

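Brain endothelial RNA of 4 KO and 4 WT pups was measured, 1 library per pup. The authors deposited whole-number read counts per gene for each library, per the file headers and the values. STAR, featureCounts and GRCm38 are named in the submitters' processing notes, and the sources used here give no version, annotation or strand setting. The libraries were stranded and read as single ends of 100 bp, per the labels' protocols.

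The 25700 identifiers were named from GENCODE M21, and 36 without a name held 0.0223% of the counts. Groups came from the sample titles, although the names of the 4 WT files disagree with them on the pup. Counts were filtered with filterByExpr (minimum count 10, minimum total 15), scaled by TMM (factors 0.9784 to 1.0263) and tested with edgeR 4.0.16 in R 4.3.3 (quasi-likelihood F test, genotype alone, Benjamini-Hochberg over 14154 genes, threshold 0.05). DESeq2 1.42.0 and limma 3.58.1 (voom) were alternatives, as were other scalings, no filter, cage terms, pup number as a block, and libraries left out. The fit was tested on simulated data. Single genes were also compared by an exact two-sided permutation test over 70 assignments. No pair of libraries agreed within sampling noise (chi-square per gene at least 16). Levels are TMM-scaled CPM, mean ± SD. Lengths are unions of GENCODE exons. Log2 CPM for likeness used a prior count of 2 and genes with a mean of at least 3. A count of 0 allows up to 3 counts, 0.144 CPM in the shallowest and 0.0269 in the deepest library, which covers counting error only. Named genes were every member, Slc2a1, and from each list the 3 genes of highest level per kilobase, any called gene and any whose groups do not overlap. Chosen after their values were seen were Slc16a8, Slc16a14 and the leukocyte term. Some genes that the rule names are not reported here. The members and lists were chosen with earlier results of these data known. Same-numbered KO and WT pups did not deviate together (correlations -0.071 to 0.026), so the numbers were not taken as pairs.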

Additional observations from a re-analysis of the deposited data

Results flagged for a closer look

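Of 64 groups of 4 libraries examined, 3 held a library far from the other 3, judged by its gap to the nearest library against the whole range of the group, and chance gives such a gap in about 1 in 20 groups. WT pup 2 stood low for Slc16a7, at 4.10 CPM against 5.70 to 5.99 in the other WT libraries. WT pup 1 stood high for Ldha, at 313 CPM against 285 to 287. KO pup 1 stood low for Cd44, at 6.91 CPM against 8.29 to 8.57.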

How the results depend on the processing

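Under each of the 19 alternatives 0 of the 9 genes were called in either direction, although the one against WT pup 5 alone has no spread of its own in WT and assumes that of the KO pups, so its calls say nothing about stability. In contrast, the calls over all genes, 55 in the main analysis, ran from 10 (cage term by the file names) to 352 (DESeq2), with 16 under the cage of the titles, 22 against WT pup 5 alone, 84 with no filter and 32 to 85 with a library left out. The number of genes without overlap was 2, and 2 to 3 with a library left out. Slc16a7 kept its direction (0.25 to 0.75 on the log2 scale) and so did Slc16a9 (-0.34 to -0.16), Slc16a3 and Slc16a6. The genes near 0 changed sign, and the cause was not tested. Slc16a1 stood at 0.08 with the cage of the titles as a term and against WT pup 5 alone. Both settings compare the KO pups with that same WT pup. With the cage of the file names, where the difference rests on WT pup 3, Slc16a4 stood at -0.10, Bsg at -0.18 and Emb at 0.33. With limma-voom Emb stood at 0.16. Emb also moved further down, to -0.95 with the cage of the titles and against WT pup 5 alone and to -0.54 with the leukocyte level as a term, and Slc16a1 to -0.25 with the cage of the file names. Without KO pup 1 and WT pup 2 together, Slc16a4 stood at -0.02 and Bsg at -0.09. With the leukocyte level as a term Slc16a4 stood at -0.05 and Slc16a10 at -0.97. With a library left out, Slc16a1 ranged from -0.11 to 0.03, Slc16a4 from -0.05 to 0.12, Bsg from -0.07 to 0.10 and Emb from -0.36 to 0.17. Slc2a1 lost its call with the cage of the file names, where the difference rests on WT pup 3 (-0.89, edgeR adjusted p 0.331). It also lost its call with the leukocyte term (-1.06, edgeR adjusted p 0.0622). With pup number as a replicate block, the numbers being shared without pairing the pups, Slc16a4 stood at -0.0024, Emb at 0.12 and Slc2a1 at -0.91 (edgeR adjusted p 0.0931), and 11 genes were called. Levels per kilobase in WT by the longest transcript were 0.326 for Slc16a3, 50.6 for Slc16a4, 8.31 for Slc16a6, 0.6 for Slc16a10, 3629 for Bsg and 2.84 for Emb. The members with the fewest counts were Slc16a3, Slc16a7, Slc16a10 and Emb, with 16 to 586 per library.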
